A study of Homo sapiens with 9 samples.

Results

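Heat shock chaperones are the proteins that cells make in larger amounts when other proteins unfold, and 10 of their genes were followed here before and after a tagged transcription factor was sent for degradation. The genes were HSPA1A, HSPA1B, HSPA8, HSPH1, DNAJB1, BAG3, HSPB1, HSP90AA1, HSPD1 and HSPE1. They were chosen by name as a check of protein stress from the degrader, and all 10 were found among the 18970 gene symbols of the count tables. The cells were cranial neural crest cells (CNCCs) at passage 4, grown out of the human embryonic stem cell line H9, an established line. In every sample both SOX9 alleles carried a degron tag built on the FKBP12 protein, together with a fluorescent protein and a V5 epitope. The groups were 0h, 3h and 24h of dTAGV-1, a small molecule that brings the tagged protein to a ubiquitin ligase. The dose was 500 nM, and the labels give relative SOX9 as 100% at 0h and 0% at 3h and 24h. The 0h labels carry the same dose, whereas the protocol names DMSO as the vehicle control. Each group held the same 3 cultures, S9CC13_R6, S9CC47_R5 and S9CC47_R6, which stand for 2 tagged clones (S9CC13 and S9CC47) and 2 batches of differentiation (R5 and R6). All 9 samples, 0h included, received 4-thiouridine (4sU, 100 uM) for 2 h. In the 3h group 4sU was added 1 h after the compound, and in the 24h group 22 h after it. Untagged cells were not analysed here, so an effect of dTAGV-1 itself and an effect of SOX9 loss cannot be told apart. Likewise an effect of 4sU is shared by all groups and was not tested.

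Chaperones bind exposed stretches of unfolded proteins and give them another chance to fold. When unfolded proteins build up, the transcription factor HSF1 is released from chaperones and binds heat shock elements, which are repeats of a short unit (GAA, or TTC on the other strand) in the promoters of HSPA1A, HSPA1B, DNAJB1, HSPH1, BAG3 and others. New transcripts of these genes appear within minutes to hours, so newly made RNA is a direct readout of the response. HSPA8, HSP90AA1, HSPD1 and HSPE1 are also transcribed without stress and serve everyday folding in the cytosol or the mitochondrion.

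The promoters of the closely related HSPA1A and HSPA1B genes are shown because HSPA1A passed the test of new RNA at 24h and HSPA1B did not, and those of HSPA8 because it held the longest heat shock elements. HSPA1A (ENSG00000204389) is a gene of 1 exon on chromosome 6 from 31815543 to 31817946 (hg38, plus strand), and HSPA1B (ENSG00000204388) is a gene of 1 exon downstream of it from 31827738 to 31830254. These sequences are from RefSeq (GRCh38.p14). The 250 bases before each start lie at chr6:31815293-31815542 and chr6:31827488-31827737 on the plus strand, and aligned with 94.0% identical bases. For HSPA8, 30 bases are given at chr11:123062345-123062374 and at chr11:123062170-123062199, both on the minus strand. Capitals mark the heat shock elements.
HSPA1A: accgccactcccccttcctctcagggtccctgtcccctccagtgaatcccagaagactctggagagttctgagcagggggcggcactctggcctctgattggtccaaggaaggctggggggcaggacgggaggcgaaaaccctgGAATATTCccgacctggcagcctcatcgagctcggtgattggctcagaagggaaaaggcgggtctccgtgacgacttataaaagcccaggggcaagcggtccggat
HSPA1B: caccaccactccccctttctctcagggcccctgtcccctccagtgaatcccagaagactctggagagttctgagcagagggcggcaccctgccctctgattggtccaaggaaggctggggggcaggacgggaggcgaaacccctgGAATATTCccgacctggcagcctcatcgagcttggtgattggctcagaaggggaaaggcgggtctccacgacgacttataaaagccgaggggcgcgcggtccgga
HSPA8, farther from the start: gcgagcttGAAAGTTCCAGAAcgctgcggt
HSPA8, nearer to the start: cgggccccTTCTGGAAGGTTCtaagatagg

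The element was searched as 2 inverted units (GAANNTTC or TTCNNGAA, each its own reverse complement) in the window from 250 bases before to 50 after the start of each gene. All 10 genes had such a window. HSPA1A, HSPA1B, HSPA8 and HSPB1 held the 2-unit element, 4 of 10, against 13.7% of 27305 promoters and 9.75% of the 9699 promoters of genes tested below. In HSPA1A it lay at -106 to -99 from the start, in HSPA1B at -105 to -98 and in HSPB1 at -182 to -175. The 3-unit element contains 2 overlapping 2-unit elements and was present in 0.487% of promoters. Among the 10 genes only HSPA8 held it, at -230 to -218 and at -55 to -43. The 2-unit letters were not present in the windows of HSPH1, DNAJB1, HSPD1, HSPE1, BAG3 and HSP90AA1. That says only that this exact pattern is not in 300 bases at 1 start. The HSP90AA1 window (chr14:102139700-102139999) lay outside the GENCODE span of the gene, which ends at 102139699. The DNAJB1 window (chr19:14529222-14529521) lay inside its span of 14514769 to 14560391. So did the HSPA8 window (chr11:123062087-123062386, span 123057489 to 123063230) and the HSPD1 window (chr2:197500225-197500524, span 197486584 to 197516737). Whether these cells use the starts taken here was not tested. The TATA box letters TATAAA (12% of promoters, both strands) were found in HSPA1A and HSPA1B, at -30 to -25 and at -29 to -24. CCAAT (35.7%, both strands) was found in HSPA1A, HSPA1B, HSPA8, DNAJB1 and HSP90AA1. HSPD1 and HSPE1 are transcribed away from each other on chromosome 2, and the RefSeq starts of their windows lie 105 bases apart.

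Reads that carry a T>C conversion come from RNA made during the labelling (T>C reads, new RNA), and all reads together measure total RNA. Total reads per sample ranged from 16955633 to 28782678 and T>C reads from 3130673 to 5475800, so that 15.92% to 21.3% of a library was labelled. The 10 genes together took 0.603% to 0.674% of total reads and 0.456% to 0.541% of T>C reads. Of the markers of CNCCs, NR2F1 (884 to 1095 CPM, counts scaled to equal library totals) and TFAP2B (516 to 757) were highest. SNAI2 (7.71 to 15.9) and ALX1 (30.9 to 50.0) were lowest. The 8 crest markers summed to 2282 to 2353 CPM at 0h, 2234 to 2276 at 3h and 2577 to 2781 at 24h. The 4 neural ectoderm markers reported summed to 0.225 to 1.22 CPM, with SOX1 at 0. Of the 5 pluripotency markers POU5F1, NANOG and ZFP42 were at or near 0, but LIN28A ranged from 241 to 374 CPM and DPPA4 from 34.2 to 44.6. Their sum was 350.1 to 414 CPM at 0h, 304 to 349 at 3h and 281 to 306 at 24h, and its part in the results below was not tested. The SOX9 transcript was higher after dTAGV-1, with a log2 fold change of T>C reads of 0.77 at 3h and 1.15 at 24h (DESeq2, adjusted p = 7.24e-18 and 7.28e-39). The compound acts on SOX9 protein, so this transcript does not check the depletion. In bulk RNA, fewer cells of a type and less RNA per cell cannot be told apart.

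**Figure D1:**
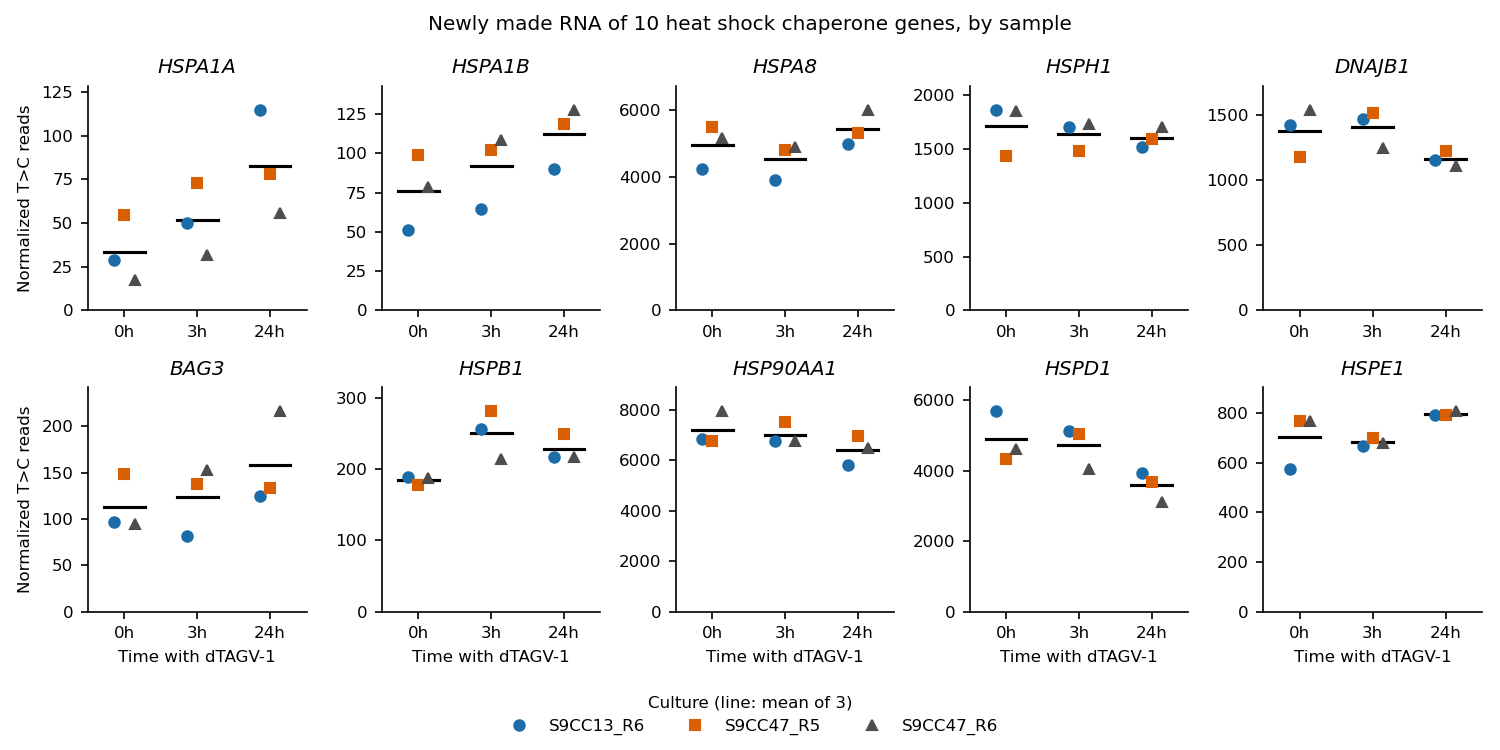
Normalized T>C reads (linear axes starting at 0, a separate scale for each gene) of the 10 chaperone genes at 0h, 3h and 24h. Each point is 1 sample, its colour and shape give the culture, and the line is the mean of 3. At 24h the 3 samples of HSPA1A, HSPB1 and HSPE1 lie above, and those of HSPD1 below, all 3 samples at 0h.

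The first question was whether the stress-induced chaperones were transcribed more at 3h, when labelling ran from 1 h to 3 h of dTAGV-1. All 10 genes reached 1 CPM in at least 3 samples and were tested. No gene of the 10 passed the test for new RNA at 3h. Over all 12037 genes tested, 1.79% passed (DESeq2 with differentiation batch and 1 surrogate variable, Benjamini-Hochberg adjusted p under 0.1). The median log2 fold change of the 10 genes was -0.018, beside -0.011 over all genes tested. 1 of the 10, HSPB1, had an unadjusted p under 0.05, beside 882 of the 12037 genes tested.

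HSPA1A and HSPA1B encode the stress-inducible HSP70 proteins, and HSPA1A had few reads. In S9CC13_R6, S9CC47_R5 and S9CC47_R6, the order used throughout, its normalized T>C reads were 29.2, 54.4 and 17.5 before dTAGV-1 (0h) and 50.3, 72.8 and 31.5 at 3h. Each culture was higher at 3h than at 0h, but the ranges of the groups overlapped. The log2 fold change was 0.54 (SE 0.394, adjusted p = 0.919), with a 95% interval of -0.23 to 1.32 that is wide at 23 to 121 T>C reads per sample before normalization. HSPA1B had 51.1, 99.2 and 78.5 normalized T>C reads at 0h and 64.8, 102 and 109 at 3h, which also overlapped (log2 fold change 0.38, 95% interval -0.10 to 0.86, adjusted p = 0.869).

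For DNAJB1, HSPH1, HSPA8, HSP90AA1, HSPD1 and HSPE1 the intervals of the change in new RNA at 3h were narrower, and all 6 included 0. DNAJB1, the J-domain partner that hands unfolded proteins to HSP70, had 1425, 1179 and 1539 normalized T>C reads at 0h and 1469, 1518 and 1249 at 3h. One culture was lower and the other two higher at 3h, with log2 ratios of 0.04, 0.36 and -0.30, and the fitted log2 fold change was -0.0060 (95% interval -0.21 to 0.20). HSPH1, which encodes the HSP110 protein that exchanges nucleotide on HSP70, changed by -0.064 (-0.25 to 0.13). HSPA8, the constitutive HSP70, changed by -0.074 (-0.23 to 0.080) and HSP90AA1, the inducible cytosolic HSP90, by -0.036 (-0.22 to 0.14). Of the mitochondrial pair, HSPD1 (the HSP60 chaperonin) changed by -0.11 (-0.28 to 0.070) and HSPE1 (its HSP10 lid) by -0.030 (-0.26 to 0.21). For these 6 genes the upper end of the interval, which is not adjusted for the number of genes, lay between 1.05-fold and 1.15-fold of 0h.

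HSPB1 and BAG3 gave wider intervals. HSPB1 encodes the small heat shock protein HSP27, which holds unfolded proteins without folding them. Its normalized T>C reads were 190, 178 and 187 at 0h and 257, 282 and 215 at 3h, so that the groups did not overlap. The log2 fold change of 0.40 (SE 0.163, unadjusted p = 0.0142) had an adjusted p of 0.402 over all genes. BAG3, a nucleotide exchange factor that steers HSP70 clients to autophagy, had 96.9, 149 and 94.5 normalized T>C reads at 0h and 82.0, 138 and 153 at 3h. Its values at 3h were higher in 1 of 3 cultures, with a log2 fold change of 0.27 (95% interval -0.15 to 0.69, adjusted p = 0.945).

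**Figure D2:**
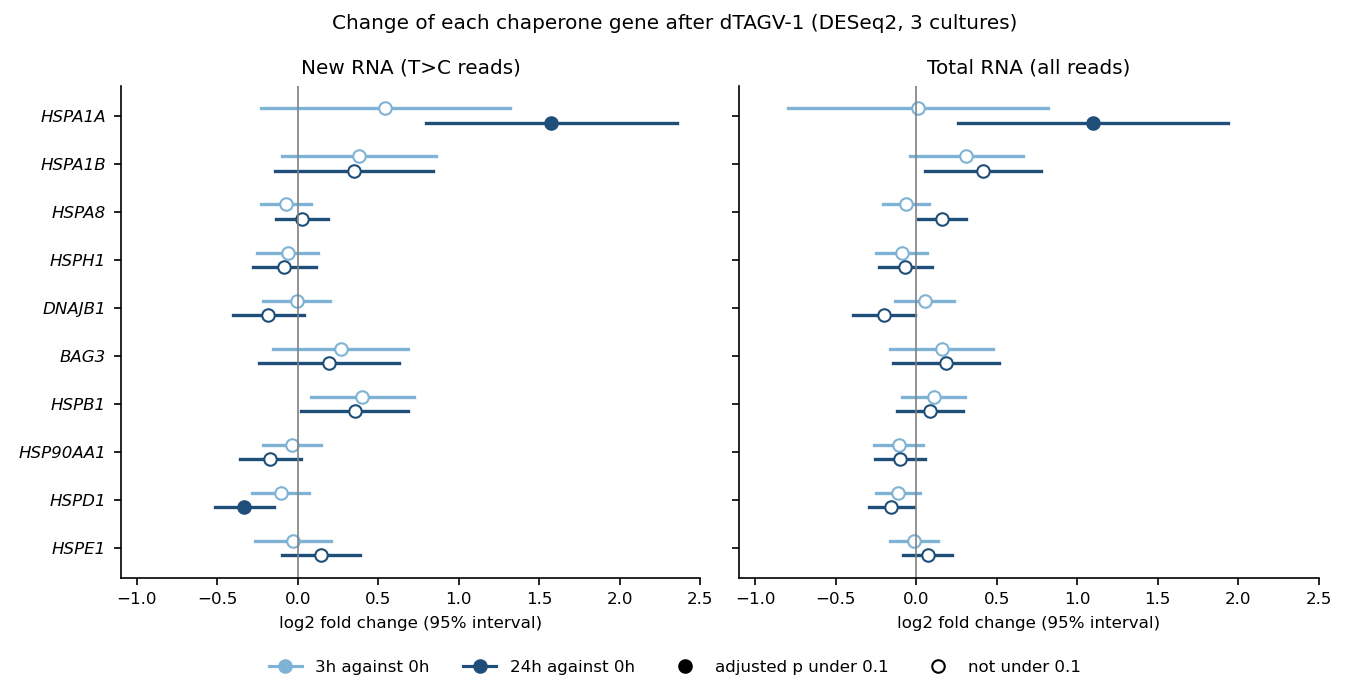
Log2 fold change of each chaperone gene at 3h (light blue) and 24h (dark blue) against 0h, for T>C reads on the left and total reads on the right. Points are DESeq2 estimates from 3 cultures, lines are 95% intervals, and filled points have an adjusted p under 0.1. The filled points are HSPA1A at 24h in both panels and HSPD1 at 24h in T>C reads.

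At 24h, when labelling covered the last 2 h, 2 of the 10 genes passed in new RNA, where 4.98% of the 12037 genes tested passed. HSPA1A rose and HSPD1 fell, and the other 8 did not pass. The median log2 fold change of the 10 was 0.085, beside 0.0015 over all genes tested.

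HSPA1A reached 115, 77.9 and 55.6 normalized T>C reads at 24h in S9CC13_R6, S9CC47_R5 and S9CC47_R6, against 29.2, 54.4 and 17.5 at 0h. The groups did not overlap, but the lowest sample at 24h and the highest at 0h were close. The log2 fold change was 1.57 (SE 0.397, adjusted p = 0.00413), a fold of 2.98 with a 95% interval of 1.74 to 5.11. The 3 cultures differed in size, with log2 ratios of 1.98, 0.52 and 1.66, and the fitted 1.57 lay above their mean. Mean normalized T>C reads were 33.7 at 0h and 82.7 at 24h. The call was lost when either R6 culture was left out. Without S9CC13_R6 the log2 fold change was 0.71 (adjusted p = 1.00), without S9CC47_R6 it was 1.23 (adjusted p = 1.00) and without S9CC47_R5 it was 2.32 (adjusted p = 0.00566). With 6 samples left, the fits without an R6 culture kept 1 residual degree of freedom, and the fit without S9CC47_R5, which has no batch term, kept 2.

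HSPA1B had 90.1, 118 and 127 normalized T>C reads at 24h, against 51.1, 99.2 and 78.5 at 0h. Each culture was higher at 24h, with log2 ratios of 0.82, 0.26 and 0.70, and the groups overlapped. The fitted log2 fold change of 0.35 (SE 0.251, adjusted p = 0.624) lay below the mean of these ratios. It was 0.58 without the surrogate variable, again without passing (adjusted p = 0.297). The test of HSPA1A against HSPA1B was not made. The proteins encoded by these genes are nearly identical, and their transcripts shared 96.3% of aligned bases. Over the whole transcript, 75.1% of the runs of 50 bases in HSPA1A were also in HSPA1B. The last 250 bases, where 3' end reads were taken to fall, shared 63.2% of aligned bases and no run of 50 bases. The regions counted were not given, so mixing of reads between the genes was not tested. In GENCODE a long noncoding RNA gene on the same strand overlaps HSPA1B from 31828834 to 31830254. With the reads of both genes summed, the log2 fold change was 0.79 (SE 0.218, adjusted p = 0.0123).

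HSPD1 gave the fall. It lies on chromosome 2 from 197486584 to 197516737 (hg38, minus strand). Its normalized T>C reads were 5691, 4341 and 4630 at 0h, 5121, 5054 and 4048 at 3h, and 3942, 3689 and 3112 at 24h. All 3 samples at 24h were lower than every sample at 0h and at 3h. The log2 fold change at 24h was -0.33 (SE 0.0944, adjusted p = 0.0175), a fold of 0.795 with a 95% interval of 0.699 to 0.904, and the cultures gave log2 ratios of -0.53, -0.24 and -0.57. With any 1 culture left out the gene no longer passed, at -0.22 without S9CC13_R6, -0.35 without S9CC47_R5 and -0.39 without S9CC47_R6. The falls of -0.35 and -0.39 were no smaller than the -0.33 of all 9 samples. As for HSPA1A, these fits kept 1 or 2 residual degrees of freedom. The lost call therefore cannot tell a weaker fall from too few samples.

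HSPE1, whose protein closes the HSP60 barrel, did not move with HSPD1. Its normalized T>C reads were 576, 769 and 769 before dTAGV-1, then 667, 698 and 679 at 3h, and 791, 790 and 808 at 24h. The 24h samples were higher than all 0h samples, and the log2 fold change was 0.14 (SE 0.124, adjusted p = 0.714). In GENCODE, HSPD1 and HSPE1 overlap on opposite strands, and HSPE1 shares its strand with the readthrough gene HSPE1-MOB4. Whether strand was used in counting was not given in the sources used here.

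**Figure D3:**
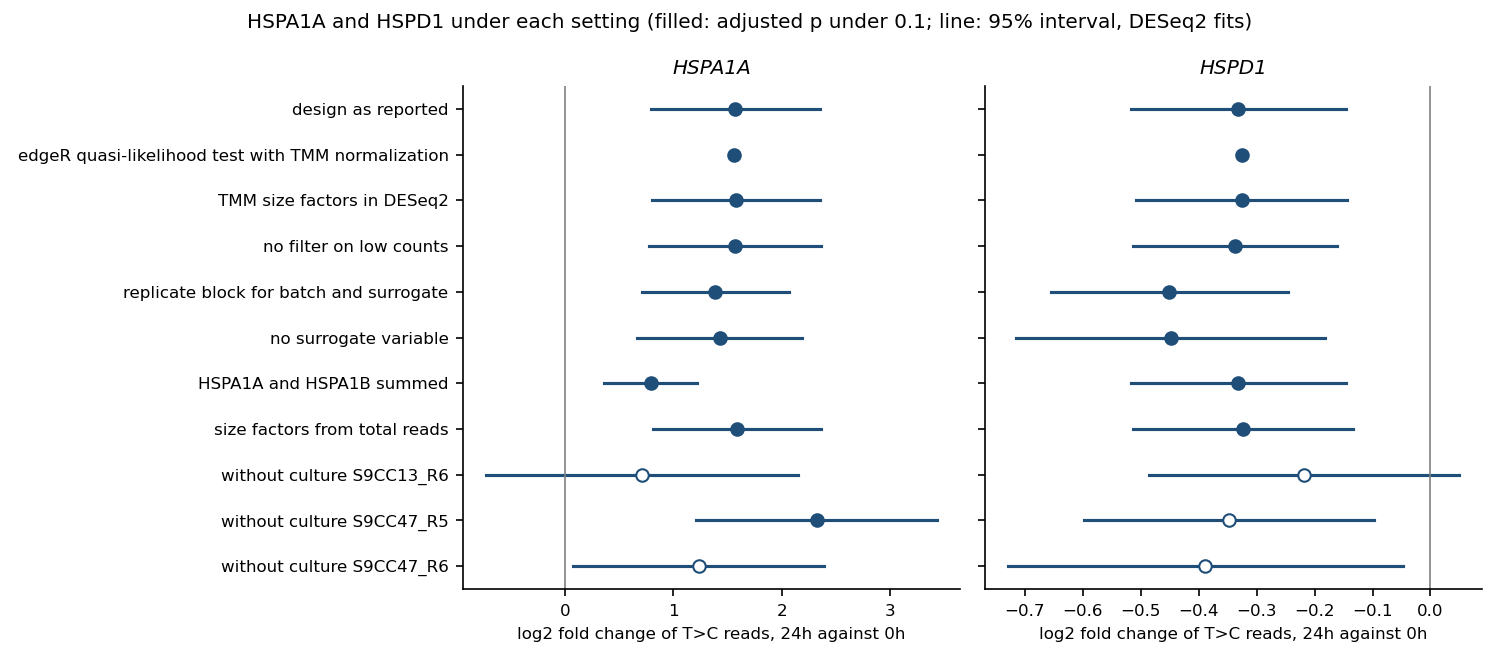
Log2 fold change of T>C reads at 24h against 0h for HSPA1A (left) and HSPD1 (right) under the reported design and each alternative. Lines are 95% intervals of the DESeq2 fits, edgeR gives none, and filled points have an adjusted p under 0.1. HSPA1A passed in all settings but 2, without S9CC13_R6 and without S9CC47_R6, and HSPD1 passed in all but the 3 that leave out a culture. The summed setting plots both HSP70 genes together in the left panel.

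Among the genes that did not pass at 24h, DNAJB1, HSPH1 and BAG3 had no common direction. HSPA1B, given above, and HSPB1, given below, were higher in each culture. DNAJB1 had 1153, 1225 and 1112 normalized T>C reads at 24h, with a log2 fold change of -0.18 (SE 0.111, adjusted p = 0.508). HSPH1 stood at 1523, 1593 and 1704 (-0.083, SE 0.101, adjusted p = 0.822). BAG3 had 125, 133 and 216, the highest in S9CC47_R6, where the log2 ratio to 0h was 1.20 while S9CC47_R5 was lower than at 0h. Its fitted log2 fold change was 0.19 (SE 0.221, adjusted p = 0.806).

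HSPB1 remained above its 0h samples at 24h, with 217, 249 and 217 normalized T>C reads, but did not pass (log2 fold change 0.35, SE 0.169, adjusted p = 0.316). HSPA8 had 4970, 5317 and 5989 at 24h and 4221, 5474 and 5161 at 0h, which overlapped (0.027, SE 0.0821, adjusted p = 0.947). HSP90AA1 had 5798, 6960 and 6504 at 24h and 6836, 6775 and 7948 at 0h (-0.17, SE 0.0958, adjusted p = 0.442).

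Between 3h and 24h no gene of the 10 passed in new RNA, where 1.14% of all genes did. HSPA1A differed by 1.03 (SE 0.427, adjusted p = 0.394) and HSPD1 by -0.22 (SE 0.102, adjusted p = 0.502). HSPD1 was lower at 24h than at 3h in 3 of 3 cultures, with log2 ratios of -0.38, -0.45 and -0.38. The call depended on the design. When culture was used as a replicate block instead of the batch and surrogate terms, 2 of the 10 genes passed, HSPD1 at -0.41 (adjusted p = 0.00854) and HSPA8 at 0.27 (adjusted p = 0.0997), where 4.4% of all genes passed. HSPA1A did not pass in that fit either (0.73, adjusted p = 0.262).

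Total RNA was compared with the same design. At 3h no gene of the 10 passed, where 1.89% of 11710 genes did. None of the 10 had an unadjusted p under 0.05, beside 962 of the 11710. The median log2 fold change was -0.0012, beside -0.0065 over all genes. At 24h HSPA1A passed, 1 of 10, where 15.0% of all genes did. HSPA1A had 166, 164 and 88.3 normalized total reads at 0h, 182, 146 and 124 at 3h, and 404, 208 and 206 at 24h. The 24h samples were higher than every other sample. The log2 fold change at 24h was 1.10 (SE 0.428, adjusted p = 0.0787). It was 0.23 without S9CC13_R6 and 0.51 without S9CC47_R6, neither of which passed, and 1.73 without S9CC47_R5, which did.

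At 24h in total RNA the unadjusted p was under 0.05 in 5 of the 10 genes, HSPA1A and 4 more. Over all 11710 genes tested it was under 0.05 in 2791. HSPA1B had 147, 217 and 188 normalized total reads at 0h and 217, 343 and 360.2 at 24h, higher in 3 of 3 cultures (log2 fold change 0.41, SE 0.184, adjusted p = 0.135). HSPA8 was also higher in each culture, with 15778, 20517 and 18919 at 0h and 20566, 21442 and 24533 at 24h (0.16, SE 0.0760, adjusted p = 0.171). In the fit with the replicate block, 3 of the 10 genes passed at 24h in total RNA, HSPA1A (0.96), HSPA1B (0.72, adjusted p = 0.00821) and HSPA8 (0.27, adjusted p = 0.0538), where 14.7% of all genes did. HSPD1 was lower in 3 of 3 cultures (-0.15, SE 0.0718, adjusted p = 0.162) and DNAJB1 in 2 of 3 (-0.20, SE 0.0979, adjusted p = 0.185). The remaining 5 genes had log2 fold changes between -0.099 for HSP90AA1 and 0.19 for BAG3.

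The share of a gene's reads that carry a conversion grows with the share of its RNA made in the last 2 h, and with the number of T bases in the reads. At 0h the 10 genes covered a wide range. HSPB1 was lowest, with 6.88% ± 0.818 (SD, n = 3), followed by HSP90AA1 with 9.14% ± 0.864, HSPE1 with 14.2% ± 1.57 and HSPD1 with 19.5% ± 0.883. These 4 genes had ranges over the 3 samples that did not overlap. HSPH1 followed with 21.7% ± 1.06, and its range met that of HSPD1. HSPA8, at 27.3% ± 1.26, lay next to the median of all 12037 genes tested, which was 27.8% with quartiles of 17.1% and 41.9%.

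The 3 highest labelled shares were those of HSP70 partners and of an inducible HSP70. BAG3 had 45.0% ± 5.62, DNAJB1 42.4% ± 1.46 and HSPA1B 41.5% ± 7.52, whose ranges overlapped and which ranked at the 79.4th, 75.8th and 74.6th percentile of tested genes. HSPA1A had 24.1% ± 9.67, the widest spread of the 10. Its share was 17.1% in S9CC13_R6 (28 of 164 reads, Wilson 95% interval 12.1% to 23.6%), 35.2% in S9CC47_R5 (45 of 128 reads, 27.4% to 43.8%) and 20.2% in S9CC47_R6 (23 of 114 reads, 13.8% to 28.5%). These intervals cover counting error only, since PCR copies were not marked.

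The base content of the 3' end, where the reads were taken to fall, differs between these genes. The last 250 bases of the transcript held 44% T in HSPA1A and 45.2% in HSPA1B, 21.2% in HSPB1 and 24.8% in DNAJB1, beside a median of 32.0%. DNAJB1 therefore combined a T content at the 19.0th percentile with a labelled share at the 75.8th, and HSPA1A a T content at the 98.2nd percentile with a share at the 42.0th. Across all tested genes the Spearman correlation of T content and share was 0.365, a description over genes that share libraries. No unlabelled library was analysed here, so the share from sequencing errors was not measured.

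**Figure D4:**
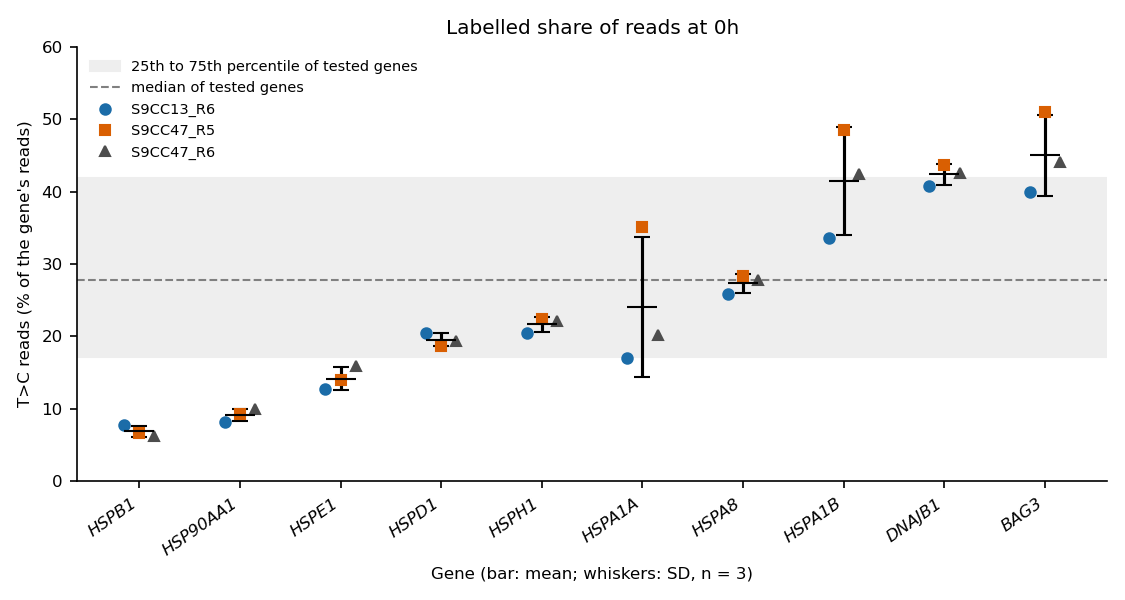
T>C reads as a percent of all reads of each chaperone gene at 0h, ordered by the mean. Points are samples by culture, bars are means and whiskers SD (n = 3). The dashed line and grey band are the median and quartiles of the 12037 genes tested. HSPB1, HSP90AA1 and HSPE1 lie below the band, and DNAJB1 and BAG3 have means above it.

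To ask whether new RNA changed relative to older RNA of the same gene, T>C and unconverted reads were fitted together. No gene of the 10 passed at 3h, where 0.307% of genes did, or at 24h, where 0.0166% did (DESeq2, interaction of read kind and time). At 3h, HSPA1A (0.78, SE 0.372) and HSPB1 (0.37, SE 0.147) and at 24h HSPD1 (-0.33, SE 0.107) and HSPA8 (-0.20, SE 0.0704) had an unadjusted p under 0.05. Over all 12037 genes tested, 509 did at 3h and 492 at 24h. HSPD1 at 24h had an adjusted p of 0.785, and passed only with the replicate block in place of the batch term (-0.33, adjusted p = 0.0478), where 0.0332% of genes did. Its labelled share was 20.5%, 18.7% and 19.4% at 0h and 17.8%, 17.5% and 16.5% at 24h. That share was lower in 3 of 3 cultures, while the share of the whole library was higher in each. DNAJB1 went from 42.4% ± 1.46 at 0h to 37.5% ± 3.84 at 3h and 45.5% ± 2.41 at 24h, in the order of the library means of 19.1%, 17.9% and 20.5%. Relative to the libraries its change was -0.12 at 3h (SE 0.0998) and 0.072 at 24h (SE 0.100), and neither passed.

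The wider chaperone network was read from 72 further genes in 10 lists, of which 66 were tested in new RNA. In the reported design no gene of the lists passed at 3h in T>C or total reads, or between 3h and 24h in T>C reads. At 24h, 2 of 66 passed in new RNA, no larger a share than the 4.98% of all genes tested. HSP90AB1, the constitutive cytosolic HSP90, had 8982 ± 298 normalized T>C reads before dTAGV-1 and fell to 7589.9 ± 393 after 24h (log2 fold change -0.23, SE 0.0683, adjusted p = 0.0303). FKBP5, a co-chaperone of HSP90 in steroid receptor complexes, rose from 215 ± 22.3 to 305 ± 34.1 (0.51, SE 0.168, adjusted p = 0.0608). Both moved the same way in 3 of 3 cultures.

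These 2 genes belong to the lists of other HSP90 genes (1 of 2 passed) and of HSP90 co-chaperones (1 of 10). In the other 8 lists no gene passed at 24h in new RNA, beside the same 4.98%. These were HSF1, HSF2 and their partner HSBP1 (0 of 3), further HSP70 and HSP110 genes (0 of 9), J-domain proteins (0 of 9), nucleotide exchange factors (0 of 6), small heat shock proteins (0 of 1), the TRiC chaperonin and prefoldin (0 of 10), other HSF1 targets (0 of 8) and chaperones of the endoplasmic reticulum (0 of 8). HSPA6, an HSP70 gene that is nearly silent without strong stress, had 0 to 3 total reads per sample over the 9 samples. HSPB8, the small heat shock protein that works with BAG3, had 0 or 1. In total RNA at 24h, 10 of 65 genes of the lists passed, 6 higher and 4 lower, beside the 15.0% of all genes. Those lower were HSP90AB1 (-0.18), its mitochondrial relative TRAP1 (-0.26), the myosin chaperone UNC45A (-0.35) and CLU (-0.62), an extracellular chaperone. Those higher were FKBP5 (0.28), DNAJC7 (0.20), CCT2 (0.23), PFDN2 (0.31), SERPINH1 (0.36), the collagen chaperone, and PDIA4 (0.33). All of these genes, HSP90AB1 and FKBP5 included, are named because they passed a test.

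The 10 genes did not move as 1 group over the 9 samples. Over their 45 pairs the Pearson correlation of log2 normalized T>C reads ran from -0.836 for HSPA1B and HSPD1 to 0.846 for HSPA1B and BAG3. HSPA1A and HSPA1B correlated at 0.422, and HSPD1 and HSPE1 at -0.792. The samples share their cultures and normalization, so these are descriptions. The genes with the profile most like the mean of the 10 were PRPF38A (0.927), LSM10 (0.918), HJURP (0.872), WBP2 (0.862) and DDX31 (0.861), none of them a chaperone.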

How the data were processed

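SLAM-seq was read from 3' end libraries (QuantSeq) of 9 samples. Per gene symbol, raw counts of total reads and of T>C reads were deposited as 2 tables with 9 value columns each, all used. According to the study's methods the first read was trimmed of adapters and poly(A), aligned and counted with slamdunk, and counts were merged per gene, with hg38 as the build in the submitters' processing notes. The regions counted and the use of strand were not given in the sources used here. Several of these genes have processed pseudogenes, and how reads with several positions were counted was not stated.

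Symbols were matched to GENCODE release 44 (18451 of 18970) or RefSeq (11 by symbol, 390 by synonym), and 118 matched neither. Counts of all 9 samples entered 1 DESeq2 fit (version 1.42.0, R 4.3.3) of time, differentiation batch and 1 surrogate variable (svaseq, sva 3.50.0), over protein-coding genes of at least 1 CPM in 3 or more samples, without independent filtering. Genes were called at a Benjamini-Hochberg adjusted p under 0.1 over all genes tested. Normalized reads are counts divided by size factors, and unconverted reads are total minus T>C reads, fitted with T>C reads as 18 columns with sample terms. Intervals are 95% Wald intervals, and Wilson intervals for shares. Alternatives were edgeR 4.0.16, TMM, no filter, no surrogate variable or batch, the replicate block, total-read size factors, HSPA1A and HSPA1B summed, and each culture left out. Cultures pair samples across times by the clone and batch in the titles. The correlation of their deviations from group means averaged 0.131 for T>C and 0.273 for total reads over 9 pairs. On simulated counts for 24h against 0h, the T>C fit over 12037 genes recovered 70.0% of changes of 1 and 91.0% of changes of 2 on the log2 scale. The fit of T>C with unconverted reads recovered 38% and 86%, and that of total reads 89% and 100%. Of the genes called, 6.4%, 6.77% and 11.7% were false in these 3 fits. Every simulated gene had the same dispersion, with no batch or culture effect. Recovery for genes that vary more, such as HSPA1A, was not tested.

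All 10 chaperone genes are named, then every gene of the 10 wider lists called in T>C reads, and the 5 genes most like the mean profile. The genes, lists and tests were chosen with earlier results of these data known. One marker of the neural ectoderm list is not reported here.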

Additional observations from a re-analysis of the deposited data

Results flagged for a closer look

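In the reported design 1.14% of the 12037 genes tested passed the direct test of 24h against 3h in T>C reads. Among the 10 chaperone genes, the wider lists and SOX9, the targeted gene, only SOX9 passed it. Its T>C reads were higher at 24h than at 3h by 0.38 on the log2 scale (SE 0.0907, DESeq2 adjusted p = 0.00625), in 3 of 3 cultures. No chaperone gene of the 10 and no gene of the wider lists passed that test. With culture as a replicate block SOX9 passed again (0.35, adjusted p = 0.0167), and so did HSPD1 (-0.41, adjusted p = 0.00854), HSPA8 (0.27, adjusted p = 0.0997) and, of the 66 wider genes tested, PDIA4 and TRAP1. In that fit 4.4% of all genes passed. Groups of 3 samples were not searched for a sample far from the others.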

How the results depend on the processing

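Under the alternatives that keep all cultures, 429 of the chaperone genes' log2 fold changes kept their direction and their side of the threshold, 11 passed where they had not, 10 changed sign and none of the called ones was lost. None of these 10 had passed or passed after the change. In the fits that summed HSPA1A and HSPA1B, the sum was compared with each gene alone and is counted under both. DNAJB1 in T>C reads at 3h was 0.029 with the replicate block and 0.031 without the surrogate variable. For 24h against 3h in T>C reads, HSPA1B and BAG3 were -0.030 and -0.073 in the reported design. The fitted sign of HSPA1B was opposite to that of each culture, with log2 ratios of 0.475, 0.212 and 0.232. The ratios of BAG3 were 0.61, -0.051 and 0.501. HSPA1B and BAG3 were 0.30 and 0.36 with the replicate block, and 0.29 and 0.36 without the surrogate variable. The sum of HSPA1A and HSPA1B was 0.34, set against -0.030 for HSPA1B alone. HSPH1 and HSPB1 were 0.057 and 0.049 with size factors from total reads. Relative to unconverted reads at 24h the sum was 0.012, set against -0.23 for HSPA1B alone. The replicate block, which pairs the samples of a culture, called 2 genes for 24h against 3h in T>C reads, 3 in total reads at 24h and 1 relative to unconverted reads at 24h, and changed no other count. Leaving out the surrogate variable called 1 gene for 24h against 3h, and leaving out the filter called 4 in total reads at 24h. The share of all genes called in those fits is not given here, so these counts cannot be set against it. The causes were not tested.

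Leaving out 1 culture gave 0 to 1 called genes at 24h in T>C reads, and 0 to 1 in total reads. For these fits, too, the share of all genes called is not given. Many uncalled values moved across 0. In T>C reads at 3h, these ran from -0.14 to 0.12 for DNAJB1, -0.20 to 0.036 for HSPD1, -0.16 to 0.11 for HSPE1, -0.38 to 0.28 for BAG3 and -0.12 to 0.046 for HSP90AA1. In T>C reads at 24h, they ran from -0.00094 to 0.094 for HSPA8, -0.24 to 0.12 for HSPH1, -0.30 to 0.088 for DNAJB1, -0.0023 to 0.33 for BAG3 and -0.31 to 0.053 for HSP90AA1. For 24h against 3h they ran from -0.087 to 0.33 for HSPA1B, -0.13 to 0.13 for HSPH1, -0.25 to 0.020 for DNAJB1, -0.17 to 0.080 for HSPB1, -0.24 to 0.47 for BAG3 and -0.18 to 0.072 for HSP90AA1. In total reads at 3h they ran from -0.33 to 0.25 for HSPA1A, -0.11 to 0.12 for HSPH1, -0.057 to 0.41 for DNAJB1, -0.15 to 0.0070 for HSPD1, -0.29 to 0.033 for HSPE1, -0.28 to 0.22 for BAG3 and -0.18 to 0.15 for HSP90AA1. In total reads at 24h they ran from -0.19 to 0.17 for HSPH1, -0.31 to 0.16 for DNAJB1, -0.14 to 0.11 for HSPE1, -0.12 to 0.12 for BAG3 and -0.18 to 0.16 for HSP90AA1. Relative to unconverted reads at 3h they ran from -0.33 to 0.39 for HSPA1B, -0.035 to 0.031 for HSPA8, -0.0096 to 0.068 for HSPH1, -0.015 to 0.16 for HSPD1 and -0.084 to 0.26 for HSPE1. At 24h they ran from -0.53 to 0.0039 for HSPA1B, -0.017 to 0.073 for HSPH1, -0.099 to 0.16 for HSPE1 and -0.077 to 0.38 for BAG3. The labelled shares at 0h moved by less than their SD when reads were pooled, and with 1 culture left out that of HSPA1A ran from 18.6% to 27.7%. Both ways reuse the same 3 samples, so moves below the SD were nearly built in and are no check of the shares. HSPA1A, HSPA1B and BAG3 had the fewest reads, and their intervals were the widest of the 10 in T>C reads.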
